A study of Mus musculus with 6 samples.

Results

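The nuclear-encoded subunits of the mitochondrial respiratory chain were examined in mouse embryonic fibroblasts with and without functional Pax7. Members were the genes whose symbol names a subunit of complex I (Nduf genes with a letter a, b, c, s or v and a number), complex II (Sdha to Sdhd), complex III (Uqcr genes and Cyc1) or complex IV (Cox4 to Cox8), measured by a probe set that names a single gene. They numbered 61 of 22180 genes: 32 of complex I, 4 of complex II, 8 of complex III and 17 of complex IV. RNA came from Pax7+/+ and Pax7-/- fibroblasts of an F1 (C57Bl6N x 129Sv) background, grown in DMEM with serum and antibiotics and harvested at confluence, with 3 Affymetrix arrays per genotype. The sample titles call the replicates biological. No source used here gives the Pax7 allele, the embryos' age or whether the replicates were separate embryos or cultures. The p-values therefore measure only the spread between these samples, which may be technical. Values are log2 signals per probe set, differences are knockout minus wild type, and a signal of one gene is not compared with that of another, because probe sets differ in response.

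Complexes I and II pass electrons from NADH and succinate to ubiquinone, complex III passes them on to cytochrome c, and complex IV hands them to oxygen. Complexes I, III and IV pump protons as they do so, and ATP synthase uses the gradient. Most subunits are encoded in the nucleus, and nuclear respiratory factor 1 (NRF1), the ETS family factor GABP and YY1 are textbook regulators of their genes. Several complex IV subunits exist as a widely expressed form and a form typical of muscle, lung or testis.

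The pair of replicate 3 arrays differed from all others. Over all genes their signals correlated at 0.992, those of the other 4 arrays at 0.988 to 0.990, and those of a replicate 3 array with any other array at 0.814 to 0.844. The interquartile range of the signals was 2.98 and 3.02 on the replicate 3 arrays and 1.61 to 1.69 on the others. A background level, taken per array as the 95th percentile of the signals of 1373 odorant and vomeronasal receptors, which fibroblasts do not use, lay at 4.63 and 4.65 on the replicate 3 arrays and at 5.34 to 5.44 on the others. The samples carry the cell type label ESCs (embryonic stem cells), while their titles name fibroblasts: 11 of 12 fibroblast markers lay above background in both genotypes against 2 of 8 pluripotency markers. These were Pou5f1, above it on all 6 arrays, and Dppa3, on 4, while Nanog was above it on 2 and Sox2 on none. Of the other marker lists, 6 of 12 muscle, 4 of 5 neural, 3 of 4 epithelial and 2 of 4 macrophage genes lay above background in both genotypes. So did 1 of 4 endothelial, 1 of 5 brown fat and 0 of 1 erythroid genes. As 11770 of all 22180 genes did so, these counts alone do not identify the cells. Pax7 itself read 6.14, 5.65 and 4.88 in wild type replicates 1 to 3 and 6.17, 5.95 and 5.05 in the knockout, so its signal was not lower in the knockout; the position of its probe set against the deleted part is unknown here, and it does not check the genotype labels. In such bulk samples, fewer cells of a type and less RNA per cell cannot be told apart.

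The upstream sequence of 5 members is shown because it sets motif matches beside the values given further on: Sdha, Sdhd and Cox6a1 hold 2 or 3 matches each, Cox6b1 holds 1 and Cox5a none, and the last pair were among the members that differed most between replicate 3 and the other replicates. Each is the 180 bases before the gene's annotated start, 5′ to 3′ on the gene's strand, from RefSeq on GRCm38.p6, with matches to the searched motifs in capitals. They lie at chr13:74350241-74350420 on the minus strand (Sdha), chr9:50603850-50604029 on the minus strand (Sdhd), chr5:115348959-115349138 on the minus strand (Cox6a1), chr7:30626115-30626294 on the minus strand (Cox6b1) and chr9:57521052-57521231 on the plus strand (Cox5a).
Sdha: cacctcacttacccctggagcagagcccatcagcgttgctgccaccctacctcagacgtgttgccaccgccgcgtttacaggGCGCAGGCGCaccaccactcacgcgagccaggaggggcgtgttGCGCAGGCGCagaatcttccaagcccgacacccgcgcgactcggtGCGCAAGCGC
Sdhd: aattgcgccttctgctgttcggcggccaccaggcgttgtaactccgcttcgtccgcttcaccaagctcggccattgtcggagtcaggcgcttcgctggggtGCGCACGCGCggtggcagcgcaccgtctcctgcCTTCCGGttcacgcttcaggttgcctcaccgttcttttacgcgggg
Cox6a1: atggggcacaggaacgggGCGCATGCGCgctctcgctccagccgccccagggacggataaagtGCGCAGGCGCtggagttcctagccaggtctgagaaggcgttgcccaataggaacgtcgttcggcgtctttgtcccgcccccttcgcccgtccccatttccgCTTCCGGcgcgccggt
Cox6b1: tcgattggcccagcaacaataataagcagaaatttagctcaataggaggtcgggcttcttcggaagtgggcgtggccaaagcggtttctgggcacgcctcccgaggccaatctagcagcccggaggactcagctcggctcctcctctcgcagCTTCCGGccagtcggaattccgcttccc
Cox5a: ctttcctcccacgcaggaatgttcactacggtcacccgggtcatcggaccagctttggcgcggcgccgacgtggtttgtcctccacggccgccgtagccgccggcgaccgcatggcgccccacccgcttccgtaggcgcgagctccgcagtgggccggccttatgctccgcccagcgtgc

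The motifs were the NRF1 core, with any base in the sixth place (it reads GCGCAGGCGC and GCGCAAGCGC in Sdha), the ETS site CCGGAAG that GABP can bind, and a YY1 site, each sought on both strands in the 300 bases from 250 before to 50 after the start. Of the members, 49 had such a window, and 21 of these (42.9%) held at least 1 of the 3 motifs, against 14.6% of all 27025 genes in the promoter table and 27.5% of the genes above background on these arrays. The NRF1 core stood in 9 member promoters (18.4%, against 5.2% of all and 10.5% of the genes above background), the ETS site in 11 (22.4%, against 9.9% and 18.1%) and the YY1 site in 3 (6.1%, against 1.0% and 2.2%). Sdha, the flavoprotein that oxidises succinate, held 3 NRF1 cores, which began 98, 55 and 10 bases before its start. Sdhd, a membrane anchor of complex II, held an NRF1 core 79 bases and an ETS site 46 bases before its start, and all 3 complex II genes with a window held a motif. So did 12 of 29 genes of complex I and 3 of 4 of complex III. In complex IV only 3 of 13 did (23.1%), below the 27.5% of the genes above background. The YY1 site occurred only in the complex I genes Ndufa9, Ndufs4 and Ndufs7 among the members searched. Cox5a had no match, which says only that these letters are not in its window.

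Whether loss of Pax7 altered the respiratory chain was asked by comparing the genotypes, and no member passed the test. Fitted with limma on genotype alone, 0 of 61 members passed an adjusted p of 0.05, as did 0 of 22180 genes (0%), and 0 members had an unadjusted p below 0.05 against 15 genes in all (0.0676%, with 0.00902% higher and 0.0586% lower). Equal replicate numbers deviated together from their genotype's mean, which rested on replicate 3, so the replicate number was also fitted as a block. With it 17 of 22180 genes (0.0766%, with 0.00902% higher and 0.0676% lower) passed and again 0 members did. Replicate 1 minus replicate 2 correlated at only 0.043 between genotypes over all genes, so replicates 1 and 2 are paired by number alone. At an unadjusted p below 0.05 with the block there were 2 members, Cox7c higher and Cox6a2 lower, against 6.73% of all genes (3.28% higher and 3.45% lower). Cox6a2 was not above background in either genotype, and Cox7c was above it in the knockout only. The member with the smallest p in that fit was Cox7c (limma adjusted p = 0.451). The differences were small: 59 of 61 members lay within 0.25 of 0, and the median over all members was -0.01 (SD over members 0.13), against -0.00 over all genes (SD 0.14).

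The precision of this comparison rests on the block. With it, limma's SE of a member lay between 0.09 and 0.17, and the 95% interval lay within 0.5 log2 units of 0 for 58 of the 61 members and within 1 unit for all 61. The 3 exceptions at 0.5 were Cox7c, Uqcrb and Cox4i2. Without the block the SE rose to between 0.16 and 1.02, where the replicate 3 difference counts as spread, and the interval lay within 1 unit for 25 members.

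**Figure D1:**
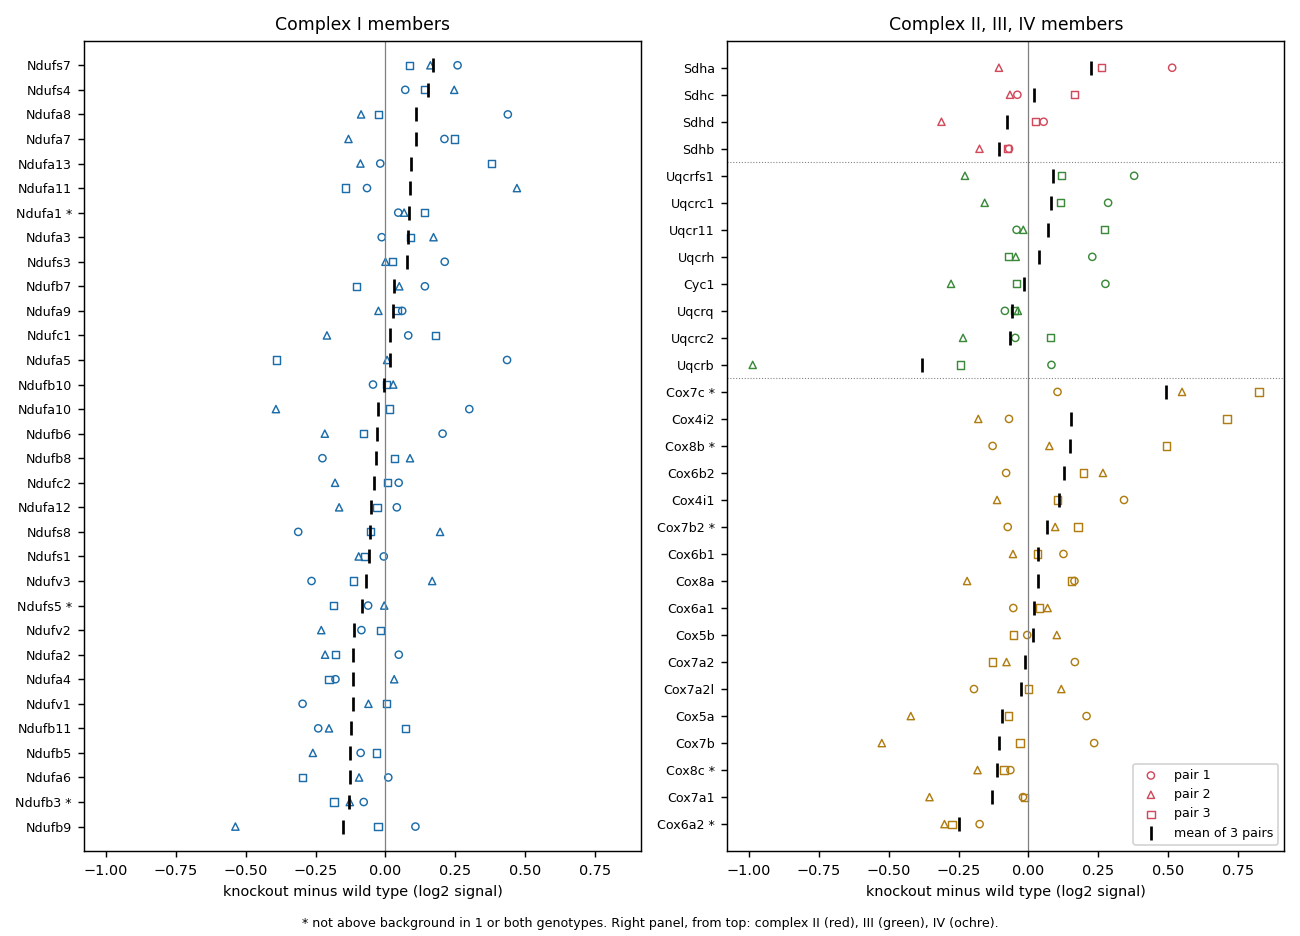
Knockout minus wild type (log2 signal, horizontal axis) for each of the 61 members (vertical axis, complex I left, II to IV right), with the 3 pairs of equal replicate number as circles, triangles and squares and their mean as a black bar; an asterisk marks members not above background in 1 or both genotypes. The means of 59 members lie within 0.25 of 0, the triangles of pair 2 lie mostly to the left, and Cox7c and Uqcrb have the means farthest from 0.

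The pairs disagreed in direction. In pair 1, 31 members were higher in the knockout, in pair 2 19 were, and in pair 3 32 were. The pair medians were 0.01, -0.09 and 0.00 over the members and 0.02, -0.02 and 0.00 over all genes. Pair 2 was lower for 42 of 61 members, including all 4 of complex II and all 8 of complex III, against 11991 of 22180 genes. Among genes above background, pair 2 was lower for 38 of 53 members against 6943 of 11770 genes, with medians of -0.094 and -0.045. Wild type replicate 2 had the highest signal of the 4 arrays of replicates 1 and 2 for 27 of 61 members, and for 31.3% of all genes. Across the 3 pairs, 4 members were always higher and 10 always lower, 23.0% together, where 27.5% of all genes had 1 sign (13.8% higher and 13.8% lower). Of the 53 members above background, 2 were always higher and 6 always lower, 15.1% together, against 29.6% of all such genes.

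The median difference was -0.03 for complex I, -0.03 for complex II, 0.01 for complex III and 0.02 for complex IV. Each lay within the range of its own pair medians, which ran from -0.07 to 0.025 for complex I, from -0.14 to 0.10 for complex II, from -0.19 to 0.16 for complex III and from -0.08 to 0.03 for complex IV. The SD over members of a complex was 0.094, 0.149, 0.155 and 0.163 for complexes I to IV.

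**Figure D2:**
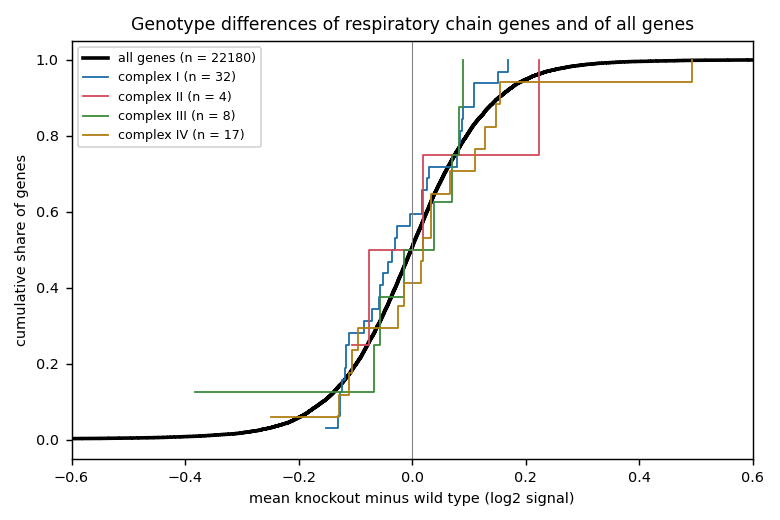
Cumulative share of genes (vertical axis) against the mean knockout minus wild type difference (log2 signal, horizontal axis) for all 22180 genes in black and for the members of each complex in colour. The curves of the 4 complexes cross 0 near the middle, as does that of all genes, with medians between -0.03 and 0.02.

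Complex I couples NADH oxidation to proton pumping, and its matrix arm carries the iron-sulfur clusters. Ndufs7, which holds the last cluster before ubiquinone, gave 8.85, 8.97 and 9.36 on the wild type arrays, in the order of their replicate numbers, and 9.11, 9.13 and 9.45 on the knockout arrays. It was higher in each pair, by 0.26, 0.16 and 0.09, but the genotypes overlapped, and the mean of 0.17 (SE 0.09 with the block, 0.22 without) did not pass (limma adjusted p = 0.794 with the block). Ndufs4, an accessory subunit known from mouse models of Leigh syndrome, was at 6.90, 6.96 and 8.29 in wild type and 6.97, 7.21 and 8.43 in the knockout. Its difference of 0.15 (SE 0.09 with the block) had 1 sign in the 3 pairs as well, while its replicate 3 signals stood more than 1 unit above the rest in both genotypes.

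Lower in each pair, without passing, were Ndufv2, an iron-sulfur subunit beside the NADH site (-0.11, SE 0.09 with the block), Ndufs1, the largest subunit of the matrix arm (-0.06, SE 0.09), and Ndufb5, an accessory subunit of the membrane arm (-0.13, SE 0.09). In replicates 1 and 2, all 4 signals of Ndufs1 and 3 of the 4 of Ndufb5 were not above background. Ndufs1 therefore has no measured direction in pairs 1 and 2, and Ndufb5 has none in pair 1. Ndufv2 read 7.65, 8.13 and 9.38 in wild type and 7.56, 7.90 and 9.36 in the knockout, so that the genotypes differed far less than the replicates. Over the 9 Ndufs and Ndufv genes the median was -0.06, over the 13 Ndufa genes 0.025 and over the 10 Ndufb and Ndufc genes -0.04. Ndufb9 had the lowest mean of complex I, -0.15 (SE 0.13 with the block), which came from pair 2 (0.11, -0.54 and -0.03). Ndufa4, listed here by its name with complex I, is now known as a subunit of complex IV, and lay at -0.12 (SE 0.10 with the block).

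Complex II, which is also succinate dehydrogenase of the citric acid cycle, has 4 subunits and all were measured above background on all 6 arrays. Sdha, whose promoter is printed above, had signals of 7.38, 7.72 and 9.10 in wild type and 7.89, 7.62 and 9.37 in the knockout. Its difference was 0.51, -0.11 and 0.26 in the 3 pairs, with a mean of 0.22 (SE 0.12 with the block, 0.65 without; limma adjusted p = 0.794 with the block). The iron-sulfur subunit Sdhb was lower in each pair, with a mean of -0.11 (SE 0.09 with the block). The membrane anchors Sdhc and Sdhd were at 0.02 and -0.08 (SE 0.095 and 0.104 with the block).

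Complex III comprises the catalytic cytochrome c1 (Cyc1) and Rieske protein (Uqcrfs1), the large core proteins Uqcrc1 and Uqcrc2, and small subunits. Cyc1 was at -0.015, Uqcrfs1 at 0.09, Uqcrc1 at 0.08 and Uqcrc2 at -0.07, with SEs of 0.10 to 0.12 with the block. The small subunit Uqcrb, which lies at the ubiquinone site, had the lowest difference among all members: its signals were 8.44, 9.63 and 10.84 in wild type and 8.52, 8.65 and 10.60 in the knockout. The pairs differed by 0.08, -0.99 and -0.24, so the mean of -0.38 (SE 0.17 with the block, 0.82 without) came mainly from pair 2, and it did not pass (limma adjusted p = 0.75 with the block). A second probe set that names Uqcrb together with Gm10767 was at -0.46, 0.35 and -0.25 in the 3 pairs. Uqcrq was lower in each pair by at most 0.08 (mean -0.06, SE 0.09).

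Genotypes did not overlap for 1 of 61 members, near the 1.41% of all genes (0.667% higher). It was Cox7c of complex IV, a small subunit of the widely expressed kind. Its signals were 5.05, 4.85 and 4.95 in wild type and 5.16, 5.40 and 5.78 in the knockout, so that each knockout array lay above each wild type array. The wild type mean was not above background, and wild type replicates 1 and 2 and knockout replicate 1 lay below it. The measured means were 4.95 and 5.44. With wild type signals below background set to it, the difference was 0.20 log2 units, or 1.15-fold. Knockout replicate 1 kept its signal below background there, so this is not a lower bound. Pair 1 has no measured direction. The Cox7c difference did not pass with the block over all replicates (limma adjusted p = 0.451), nor without replicate 2 (0.47, 0.648) or 3 (0.33, 0.952) of both genotypes. It passed only without replicate 1 of both genotypes (0.69, limma adjusted p = 0.0192). That fit rests on replicates 2 and 3 alone, and 98 of 22180 genes passed in it.

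The paired isoforms of complex IV did not pass between genotypes in either limma fit. Of the 12 isoform genes 0 were called, against 0% of all genes without the block and 0.0766% with it, so this count does not set them apart. Cox6a2 alone had an unadjusted p below 0.05 with the block, against 6.73% of all genes. Cox4i1, Cox6a1, Cox6b1, Cox7a2 and Cox8a, the widely expressed forms, were above background on all 6 arrays, as was Cox7a2l, which takes part in supercomplex assembly. Their differences were 0.11, 0.02, 0.03, -0.01, 0.03 and -0.03 (SE 0.09 to 0.11 with the block). Of the other forms, the heart and muscle forms Cox6a2 and Cox8b and the testis form Cox8c were not above background in either genotype, and neither was Cox7b2, a second testis form. Cox4i2, the lung form, read 6.29, 6.0 and 5.16 in wild type and 6.22, 5.82 and 5.87 in the knockout. Its mean of 0.15 (SE 0.16 with the block) came from pair 3. The muscle form Cox7a1 read 5.85, 5.83 and 4.62 in wild type and 5.83, 5.48 and 4.61 in the knockout, with both replicate 3 signals just below background. Cox6b2, the testis form of Cox6b, was above background on all 6 arrays, with a difference of 0.13 (SE 0.10 with the block). Of 12 markers of skeletal and heart muscle, 6 were above background in both genotypes, Myod1 and Myog among them, while Myh3, Myh8 and Ttn were below it on all 6 arrays. Their median signal ran from 4.76 to 5.70 over the wild type arrays and from 4.90 to 5.90 over the knockout arrays. The part of such cells in the muscle isoform signals was not tested.

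**Figure D3:**
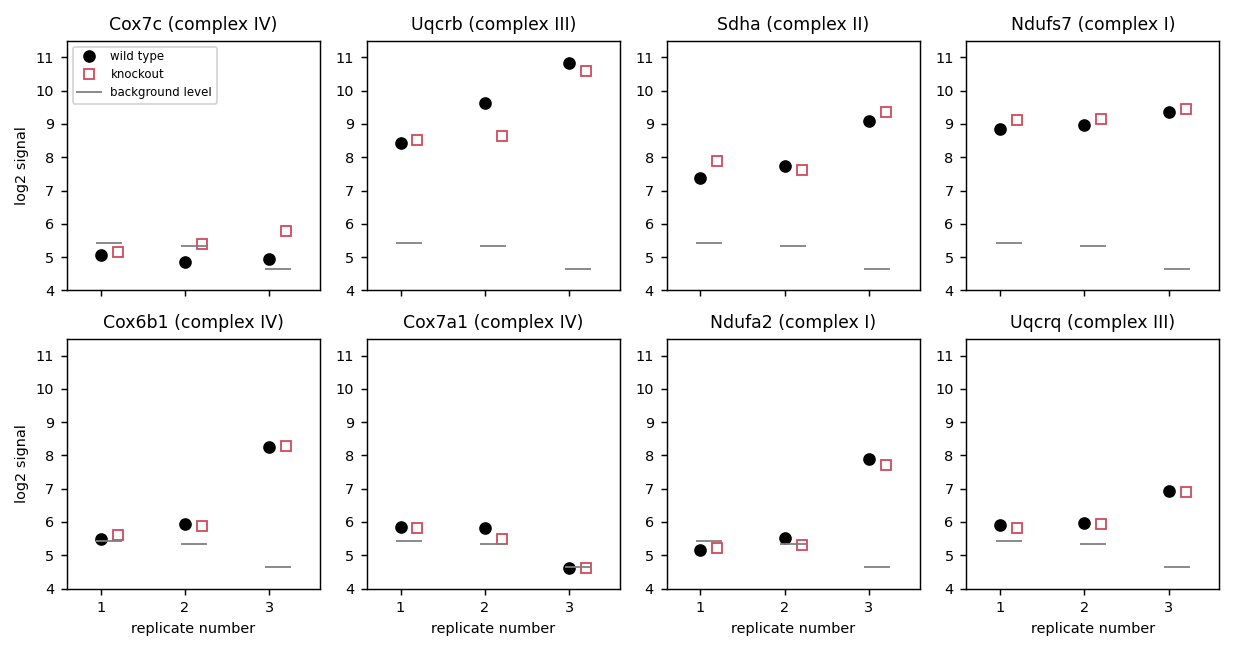
Log2 signal (vertical axis) of 8 members by replicate number (horizontal axis), with wild type as filled circles, knockout as open squares and the background level, averaged over the genotypes, as grey bars. Cox7c lies at the background level in replicates 1 and 2, Uqcrb differs most in pair 2, and Cox6b1 and Ndufa2 lie more than 2 units higher in replicate 3 in both genotypes while Cox7a1 lies more than 1 unit lower.

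The members differed far more between replicate 3 and the other replicates than between genotypes. Both replicate 3 arrays lay above the other 4 for 47 of 61 members (39.9% of all genes) and below them for 7 (46.7%), and the difference had 1 direction in both genotypes for 49 higher (42.8%) and 10 lower (51.4%). Among genes above background, both replicate 3 arrays lay above the other 4 for 45 of 53 members against 64.7% of all such genes, and both differences were positive for 46 members against 67.7%. Of these 53 members, 10 were above background on fewer than 6 arrays, 5 of them on the replicate 3 arrays only. The background level was lower on those arrays, so a gene could count as above it through replicate 3 alone. Replicate 3 shares among genes above background therefore follow in part from that filter. Taking replicate 3 minus the mean of replicates 1 and 2, 24 of 61 members (39.3%) exceeded 1 log2 unit in both genotypes, against 23.0% of all genes and 40.5% of the genes above background, and 1 member was lower by as much against 8.95% of all genes. The share among the 53 members above background was 43.4%, near that of all genes above background. No test is given because each genotype has a single replicate 3 array and both stand apart over all genes. The median over members was 0.89 in wild type and 0.95 in the knockout, against -0.10 in both over all genes and 0.82 and 0.79 over the genes above background. Over the 61 members the replicate 3 difference correlated at 0.97 between genotypes, as it did over all genes; members share their arrays, and this is a description.

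The largest differences were those of Cox6b1, Cox5a and Ndufa2. Cox6b1, which bridges the complex IV monomers, read 5.50, 5.93 and 8.25 in wild type and 5.62, 5.87 and 8.28 in the knockout, which puts replicate 3 2.54 higher in both. Cox5a, which faces the matrix, was higher by 2.50 and 2.53. Cox6a1 differed by only 0.30 and 0.33, and Cox5b by 0.12 and 0.02, so the difference varied widely between subunits of 1 enzyme. The 10 complex IV genes other than the tissue forms had medians of 0.67 and 0.70, and the 7 tissue forms had -0.56 and -0.20. Of the 3 tissue forms above background, Cox7a1 was at -1.19 or below in wild type and -1.02 or below in the knockout (measured -1.22 and -1.04), Cox4i2 was at -0.99 and -0.15, and Cox6b2 was higher, at 0.30 and 0.40. The 4 tissue forms that were not above background have no measured direction.

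In complex I the medians were 1.13 in wild type and 1.16 in the knockout. Past 1 unit in both genotypes were 17 of 32 members (53.1%), against 23.0% of all genes and 40.5% of those above background. Of the 13 Ndufa genes, mostly accessory subunits, 10 were past it, against 4 of 9 Ndufs and Ndufv genes and 3 of 10 Ndufb and Ndufc genes. After quantile normalization, taken up below, 5, 1 and 2 of them were past it, against 10.7% of all genes and 16.4% of those above background. Ndufa2, an accessory subunit of the matrix arm, was at 5.17, 5.51 and 7.89 in wild type and 5.22, 5.30 and 7.71 in the knockout, with 3 of the 4 lower signals at background, so its replicate 3 signal was higher by at least 2.32. Ndufb9 (2.12 and 2.31) and Ndufa9, at the ubiquinone end of the matrix arm (2.15 and 2.17), had all arrays above background. Ndufs1 had replicate 1 and 2 signals of 4.61 to 4.74, all below background, so replicate 3 was higher by at least 1.31. Members above background with lower replicate 3 signals were Ndufa5 (-0.07 and -0.68), Ndufb10 (-0.42 and -0.41), Ndufb7 (-0.15 and -0.35) and Ndufb6 (-0.06 and -0.13), and the single-gene probe set of Ndufs5 was below background on all 6 arrays.

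Complex II had medians of 0.68 and 0.82, led by Sdha (1.55 and 1.61), while Sdhb was at 0.54 and 0.58 and Sdhd at 0.44 and 0.60. Complex III had medians of 0.93 and 0.88, with Uqcrb at 1.80 and 2.01, Cyc1 at 1.19 and 1.14 and Uqcr11 at -0.14 and 0.17. Of the 18 members past 1 unit that had a promoter window, 7 (38.9%) held 1 of the 3 motifs, against 14 of the other 31 (45.2%). Sdha with 3 NRF1 cores and Cox5a without any motif were both past it, and Cox6a1 with 2 NRF1 cores and an ETS site was not.

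**Figure D4:**
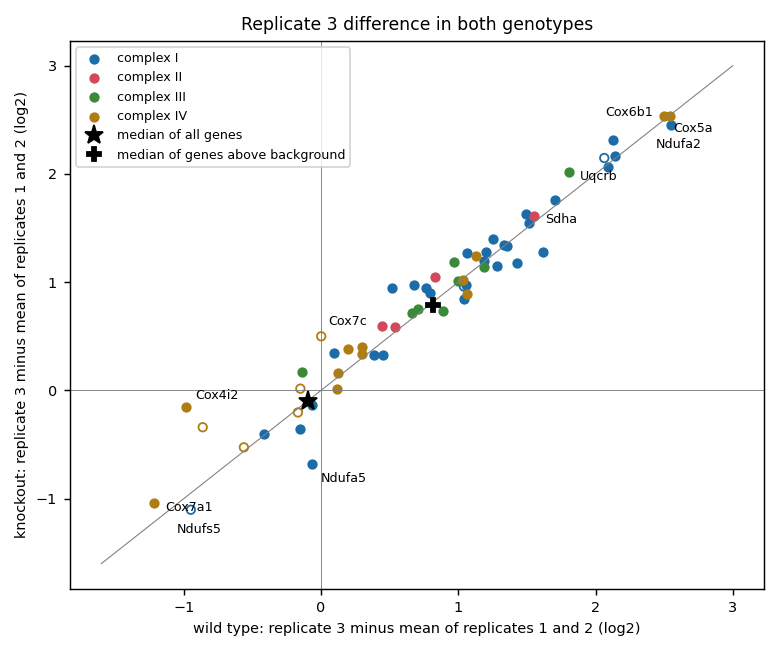
Replicate 3 minus the mean of replicates 1 and 2 (log2 signal) in wild type (horizontal axis) and in the knockout (vertical axis) for the 61 members, coloured by complex, with open circles for members not above background; the star and the cross are the medians of all genes and of the genes above background. The points follow the diagonal from Cox7a1 at -1.22 and -1.04 to Cox6b1 at 2.54 and 2.54.

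The size of this difference depended on the scale of the arrays. After quantile normalization, which gives all arrays the same distribution, the median over members was 0.10 in wild type and 0.15 in the knockout, against 0.17 in both for the genes above background, and 11 of 61 members were higher by over 1 unit against 10.7% of all genes, with 0 lower by as much against 7.37%. Among genes above background the share past 1 unit was then 17.0% of the members (9 of 53) and 16.4% of all. The complex medians then were 0.26 and 0.21 for complex I, -0.32 and -0.13 for complex II, 0.10 and 0.16 for complex III and 0.07 and 0.09 for complex IV. Complex II thus changed direction with the scaling. The differing spread of the replicate 3 arrays moved with the result, and its part in it was not tested.

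Other mitochondrial gene groups were read in the same way, and 0 of their 176 genes in 9 lists passed between genotypes in either limma fit, with 8 (4.55%) at an unadjusted p below 0.05 with the block against 6.73% of all genes. Among the assembly factors, 0 of 15 for complex I, 0 of 4 for complex II, 0 of 6 for complex III and 0 of 25 for complex IV passed. Over all genes, 0% passed without the block and 0.0766% with it. The lowest value was that of Cox18, which inserts a mitochondrially made subunit of complex IV into the membrane: 7.46, 7.55 and 8.95 in wild type against 6.47, 7.04 and 8.88 in the knockout, or -0.52 (SE 0.15 with the block; limma adjusted p = 0.51). Cox14, another complex IV assembly factor, was at -0.32 (SE 0.11) and Foxred1, of complex I assembly, at -0.25 (SE 0.09), both lower in each pair. Sdhaf1 and Sdhaf2 were at -0.03 and -0.04, Lyrm7 at 0.23 and Uqcc1 at -0.19.

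ATP synthase (18 genes) had a median difference of 0.04, with Atp5e at 0.12 and the inhibitor Atpif1 at -0.12. The citric acid cycle (12 of 13 listed genes) had one of 0.00, with Idh3g at -0.29 and Sucla2 at -0.23. The mitochondrial ribosome (71 genes) had one of -0.00, with Mrpl40 at 0.37 and Mrps23 at -0.30. Electron carriers and other entry points to ubiquinone (8 genes) had one of -0.07, with the flavoprotein oxidoreductase Etfdh at -0.31 and Dhodh at 0.19. The biogenesis regulators (17 genes) had one of 0.05: Gabpa, a subunit of GABP, was at -0.25 (SE 0.11 with the block), the mitochondrial DNA packaging factor Tfam at 0.23, and Nrf1 at -0.03. Ppargc1a, the coactivator PGC-1 alpha, was below background on all 6 arrays. Mitochondrially encoded subunits were not analysed here.

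Between replicate 3 and the other replicates, most of these groups were higher as well. The citric acid cycle genes had medians of 1.450 in wild type and 1.497 in the knockout. Past 1 unit were 10 of 12, against 23.0% of all genes and 40.5% of those above background. After quantile normalization 2 of 12 were past it, against 10.7% of all genes and 16.4% of those above background. The medians of the citric acid cycle genes were then 0.50 in wild type and 0.46 in the knockout. Idh3a, a subunit of isocitrate dehydrogenase picked after its values were seen, was higher by at least 3.25 and 3.32. These are lower bounds because 3 of its 4 signals in replicates 1 and 2 were not above background. ATP synthase had 0.78 and 0.74, the complex IV assembly factors 1.21 and 1.12, and the mitochondrial ribosome 0.84 and 0.66. Cycs, cytochrome c, was at 1.68 and 1.71, and Gabpa, with 3 of 4 lower signals not above background, was higher by at least 2.37 and 2.42, while Esrra, a nuclear receptor of mitochondrial biogenesis, was at -1.44 and -0.90 and Nrf1 at 0.21 and 0.06. The fibroblast markers had medians of 0.53 and 0.56, and the muscle markers -0.57 and -0.38. Only 6 of the 12 muscle markers were above background in both genotypes, and the background level was itself lower on the replicate 3 arrays. After quantile normalization the medians were 0.002 and 0.027 for the fibroblast markers and -0.437 and -0.375 for the muscle markers. A difference in cell make-up between replicates was not tested.

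**Figure D5:**
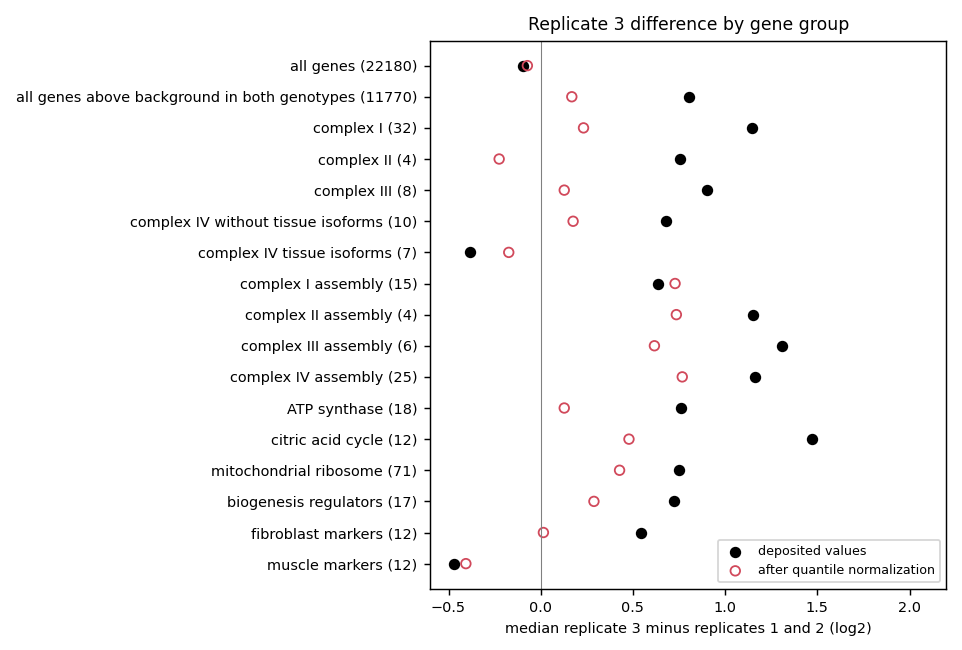
Median over genes of replicate 3 minus the mean of replicates 1 and 2 (log2 signal, horizontal axis, averaged over the genotypes) for all genes, the complexes and other gene lists (vertical axis, number of genes in brackets), as deposited (filled) and after quantile normalization (open). Most mitochondrial groups lie right of 0 in the deposited values, and the complexes lie between -0.32 and 0.26 in each genotype after quantile normalization.

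Other probe sets of the members did not always follow the one used. The 5 members with a further single-gene probe set were Cox5b, Cox7b, Ndufa8, Ndufa11 and Ndufa12. The second set was above background on all 6 arrays only for Ndufa8, where it was higher in each pair (0.21, 0.15 and 0.31) while the first gave 0.44, -0.09 and -0.02, and its replicate 3 difference was 0.27 and 0.40 against 1.04 and 0.84. For Ndufa11 the second set, above background on 2 arrays, had a replicate 3 difference of -0.97 and -0.76 where the first had 1.62 and 1.27. A further 10 probe sets name a subunit together with another gene and were left out by the rule. The set that names Ndufs5 with Ndufs5-ps was above background on all 6 arrays, at 5.55, 6.03 and 5.65 in wild type and 5.50, 5.56 and 4.79 in the knockout. It was lower in each pair, with a mean of -0.46 that is below that of any member, and it was not part of the fit. The brighter set for Ndufs6 and Ndufs6b was at 6.56, 6.78 and 9.31 in wild type and 5.75, 6.38 and 9.41 in the knockout, and the brighter set for Cox6c and Gm6265 differed by -0.04 between genotypes.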

How the data were processed

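Expression was measured in 6 samples on Affymetrix arrays. The deposited log2 signals per probe set come from the authors' use of Partek and RMA, an array summary method, per the submitters' processing notes, which name no version; base 2 is taken from the span of the signals. Of 41345 probe sets, 23521 name 1 gene, 1814 several and 16010 are not listed in the platform annotation. The brightest probe set on average stood for each of 22180 genes. The members and lists were chosen with earlier results of these data known.

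Genotypes were compared with limma 3.58.1 in R 4.3.3 (lmFit, eBayes, two-sided, Benjamini-Hochberg over all genes, threshold 0.05), checked on simulated data. SEs are limma's. Equal-numbered arrays correlated in their deviations from the genotype means at 0.92, 0.895 and 0.973, above the bound of 0.1. The replicate number was therefore fitted as a block. This pairing comes from the data and rests on replicate 3, as unequal numbers 1 and 2 correlated at 0.91 and 0.898. Replicate 1 minus replicate 2 correlated at 0.043 between genotypes, below that bound. A gene is not above background in a genotype where all 3 arrays, or the mean, lie at or below the background level; this held for 8 members in 1 or both genotypes, and 43 were above it on all 6 arrays. Named by rule were members past the threshold or without overlap, up to 5 per complex and direction with 1 sign in the 3 pairs, all of complex II, the complex IV isoforms, and per complex the highest and lowest replicate 3 difference; of each related list, the 2 genes above background with the smallest blocked p. Other members were named after their values were seen. Promoters were matched by Entrez number. The number of arrays limits the precision.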

Additional observations from a re-analysis of the deposited data

How the results depend on the processing

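The replicate block (17 genes) and a block for replicate 3 against replicates 1 and 2 (19 genes) raised the number of genes passing from 0, by removing the replicate 3 difference from the spread; 0 members passed in either. Without replicates 1, 2 and 3 of both genotypes in turn, the block gave 98, 2 and 4 genes, and without replicate 3 and no block 1 gene passed. Over all settings that leave out arrays, 0 to 98 genes and 0 to 1 members passed, that member being Cox7c without replicate 1 of both genotypes. With 1 array left out replicate 3 weighs differently in each genotype, and the medians ranged from -0.301 (without knockout replicate 3) to 0.291 (without wild type replicate 3) over all members, from -0.385 to 0.354 for complex I, -0.307 to 0.185 for complex II, -0.299 to 0.289 for complex III and -0.079 to 0.130 for complex IV. With the block and without replicates 1, 2 and 3 in turn, the median over members was -0.03, 0.04 and -0.04. Under quantile normalization, centring, the filter on dim genes (49 members), the mean of probe sets and a variance trend, the medians moved by less than the spread of their pairs, as they did with Ndufa4 counted in complex IV. Of 27 named members, only Cox7a2 changed direction under these and the blocked settings (0.018 after quantile normalization), and 24 did so when arrays were left out. Over the settings that leave out arrays, their lowest and highest values were Ndufa2 -0.933 to 0.733, Ndufb5 -0.592 to 0.291, Ndufs1 -0.748 to 0.638, Ndufs4 -0.293 to 0.603, Ndufs5 -0.401 to 0.283, Ndufv2 -0.656 to 0.387, Sdha -0.313 to 0.741, Sdhb -0.301 to 0.073, Sdhc -0.330 to 0.297, Sdhd -0.276 to 0.106, Uqcr11 -0.030 to 0.127, Uqcrb -1.053 to 0.220, Uqcrq -0.393 to 0.275, Cox4i1 -0.237 to 0.456, Cox4i2 -0.174 to 0.389, Cox6a1 -0.092 to 0.118, Cox6b1 -0.812 to 0.881, Cox6b2 -0.006 to 0.232, Cox7a1 -0.535 to 0.218, Cox7a2 -0.310 to 0.340, Cox7a2l -0.102 to 0.059, Cox8a -0.092 to 0.160, Cox8b -0.140 to 0.301, Cox8c -0.298 to 0.064. Without knockout replicate 1, Cox7a2l was at 0.023. Without replicate 1 of both genotypes and with the replicate block, the reversed differences were Cox4i1 -0.005, Cox6b1 -0.012, Cox7a2l 0.059, Cox8a -0.032. Without replicate 2 of both genotypes and with it, the reversed differences were Sdhd 0.041, Cox6a1 -0.007, Cox7a2 0.018. Without replicate 3 of both genotypes, with it or without, the reversed differences were Sdhc -0.053, Uqcr11 -0.030, Cox4i2 -0.124, Cox7a2 0.044, Cox8a -0.027, Cox8b -0.026.

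The median replicate 3 difference over members, averaged over genotypes, was 0.92; alternatives chosen after seeing the data gave 0.123 after quantile normalization, 1.201 with arrays centred, 0.865 with dim signals set to background, 0.831 with the mean of probe sets and 0.96 with the filter on dim genes. The replicate block changed no call on a member.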
